A study of Mus musculus with 4 samples.

Results

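The interferon regulatory factors are the transcription factors Irf1, Irf2, Irf3, Irf4, Irf5, Irf7, Irf8 and Irf9. They were chosen by gene name in the array annotation, with every non-control probe of each gene kept, which gave 8 genes of 28512 on the array and 12 probes of 41174. Their expression was compared between wild-type and miR-223 knockout granulocytes of the mouse. Both groups came from bone marrow of male C57BL/6 mice, cultured with 40 ng/ml of GM-CSF, a growth factor for granulocytes and macrophages, for 4 days, after which expanding immature granulocytes were sorted. Each genotype was measured on 2 Agilent 1-colour arrays. The labels do not say how the deletion was made, which gates were used for the sort, or whether replicates came from separate animals, so p-values measure only the spread between these samples, which may be technical. No probe carries the name of the deleted microRNA gene, so the genotype labels could not be checked on the targeted gene itself.

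Interferon regulatory factors bind DNA through a conserved amino-terminal domain that recognises GAAA repeats. Irf3 and Irf7 are latent factors that are phosphorylated downstream of nucleic acid sensors and switch on type I interferon genes, and Irf9 is the DNA-binding subunit of ISGF3, the complex that carries the signal of type I interferon receptors to the nucleus. Irf8, with its close relative Irf4, binds DNA mainly together with partners such as PU.1 (Spi1), and in the bone marrow Irf8 promotes monocyte and dendritic cell fates and restrains granulocyte production. miR-223 is a microRNA of the myeloid lineage that lowers the level of messenger RNAs carrying sites matched to its seed.

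The mature strand of the deleted microRNA that is best known for target repression is shown first, with its seed, bases 2 to 8, in capitals. It is taken from RefSeq on build GRCm38.p6, where it lies on the plus strand at chrX:96242884-96242905.
mmu-miR-223-3p: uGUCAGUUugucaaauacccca
The 7-base match to this seed, AACTGAC, was present in 153 of 41174 probe sequences (0.372%) and in 0 of the 12 probes of the family. A probe covers only 60 bases of a transcript, so this describes the probes and not the transcripts.

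RefSeq promoter windows of the family were searched on both strands for the gamma-activated site (GAS), written TTCNNNGAA, an element of interferon gamma responses, and for the interferon-stimulated response element (ISRE), written as GAAA, 2 bases of any kind and GAAA again, which ISGF3 and the interferon regulatory factors bind. The patterns were searched in the 250 bases before each start site, and all 8 genes matched, with 11 windows. At least 1 GAS pattern was found in 3 windows, those of Irf8, Irf1 and Irf2, and an ISRE pattern in 1, that of Irf2. Among 32851 such windows of all genes, 7.02% held the GAS pattern and 2.98% the ISRE pattern. The 3 windows are shown because they are the ones that hold either pattern. They lie on the plus strand of GRCm38.p6, at chr8:120736108-120736357 for Irf8, chr11:53769764-53770013 for Irf1 and chr8:46739495-46739744 for Irf2, and capitals mark the matches.
Irf8: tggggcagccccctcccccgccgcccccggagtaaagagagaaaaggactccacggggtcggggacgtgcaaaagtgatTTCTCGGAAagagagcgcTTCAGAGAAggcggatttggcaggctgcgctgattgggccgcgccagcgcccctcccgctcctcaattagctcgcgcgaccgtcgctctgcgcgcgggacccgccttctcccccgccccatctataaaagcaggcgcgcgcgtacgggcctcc
Irf1: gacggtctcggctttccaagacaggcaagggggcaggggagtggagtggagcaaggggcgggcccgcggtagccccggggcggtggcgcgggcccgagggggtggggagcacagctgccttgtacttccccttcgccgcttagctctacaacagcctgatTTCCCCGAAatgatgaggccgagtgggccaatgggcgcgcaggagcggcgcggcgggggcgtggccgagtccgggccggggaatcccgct
Irf2: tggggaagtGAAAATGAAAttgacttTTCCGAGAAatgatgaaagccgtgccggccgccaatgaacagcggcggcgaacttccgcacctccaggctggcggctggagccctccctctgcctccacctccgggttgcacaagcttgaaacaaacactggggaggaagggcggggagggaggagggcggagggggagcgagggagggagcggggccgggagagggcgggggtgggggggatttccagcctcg
The Irf8 window held the GAS pattern at 2 places, 171 to 163 and 153 to 145 bases before the start. In the Irf1 window the match lay 90 to 82 bases before the start. In the Irf2 window the ISRE match lay 241 to 232 bases and the GAS match 224 to 216 bases before the start, without overlap. A match is a run of letters and not a shown binding site.

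Signals are given as log2 of the processed intensity minus the 75th percentile of the same array, and a gene at 0 thus equals that percentile. A negative difference means a lower knockout mean, and its error is limma's moderated standard error (SE). The 75th percentile stood at intensities between 486 and 586, and 57.6% to 63.5% of probes were well above background on each array. No spot was saturated. The 2 wild-type arrays correlated at 0.990 and the knockout arrays at 0.994 over all probes, and pairs of different genotype at 0.985 to 0.991. Neutrophil granulocyte genes were among the strong signals on every array, with S100a8, a calcium-binding protein of neutrophils, between 9.41 and 9.92 and Ltf, the specific granule protein lactotransferrin, between 9.37 and 9.77; these genes were named after their values were seen.

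All 12 probes of the family were well above background on all 4 arrays. At an adjusted p under 0.05 (limma, Benjamini-Hochberg over all tested genes), 0 of the 8 genes were called, against 0% of 16780 genes tested. In the fit over probes, 0 of the 12 probes were called, against 0.012% of 25055 probes. At an unadjusted p under 0.05 the family had 2 genes, against 13.6% of all genes: Irf7 was the 1 higher gene, against 8.03%, and Irf8 the 1 lower gene, against 5.52%. Of the probes, 3 had such a p, against 13% of all probes. The knockout arrays did not overlap the wild-type arrays for 4 of the 8 genes, against 48.1% of all genes. They lay above for 1 gene, against 28%, and below for 3 genes, against 20.1%. The median difference was 0.02 with 4 genes higher and 4 lower, beside 0.03 over all genes, and the split was 5 and 3 with median scaling and 3 and 5 with spike-in scaling. The count of genes whose groups did not overlap is close to the share of all genes and is no result about the family, whose values ran in both directions. With 2 arrays against 2, an exact permutation test of a single gene cannot give a two-sided p below 0.333.

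**Figure D1:**
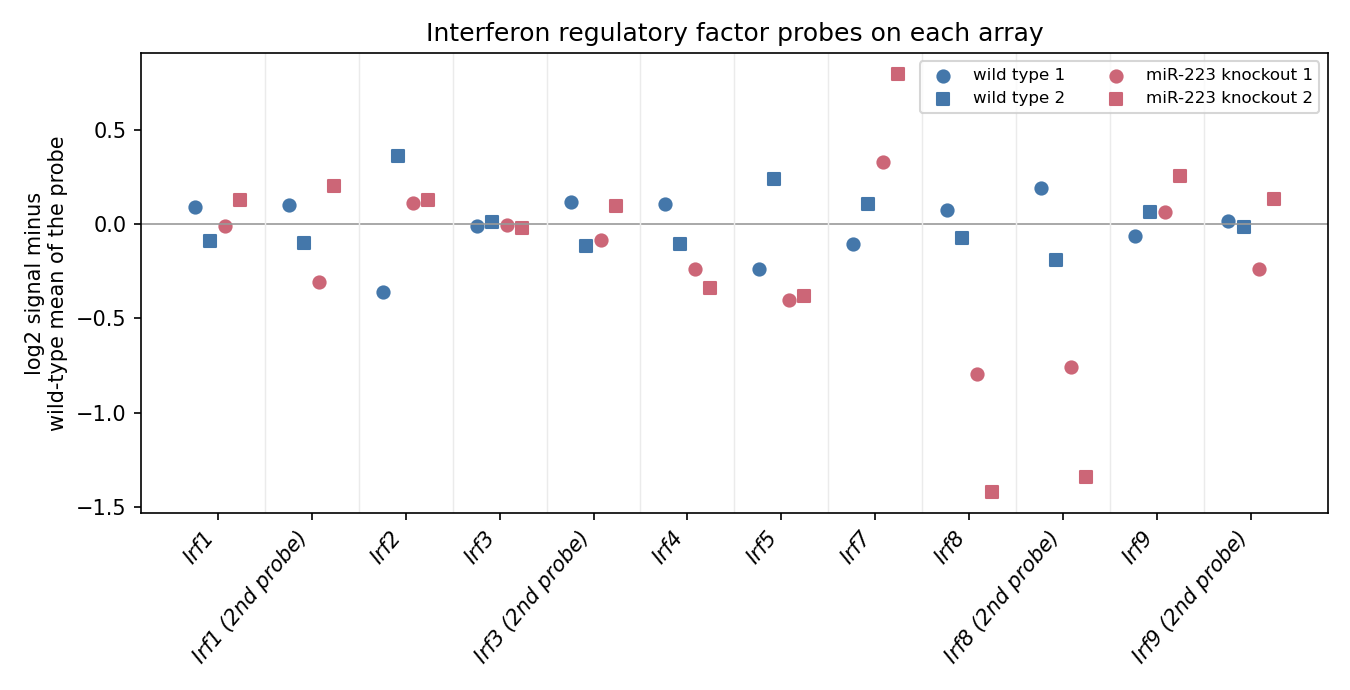
Log2 signal of each of the 12 probes on each array, minus the mean of the wild-type arrays for that probe. Blue points are wild-type arrays, red points knockout arrays, and circles and squares are replicates 1 and 2; both Irf8 probes lie lowest on the knockout arrays, and the Irf7 probe lies highest there.

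Irf8 had the largest difference of the family. Its brighter probe, at chr8:123280324-123280383 of build mm9, read 1.86 and 1.71 in the wild type and 0.98 and 0.36 in the knockout. In intensity these are 2123 and 1587 against 1018 and 633. The knockout values were the lower ones on both arrays, and they were farther apart than the wild-type values. The difference was -1.11 ± 0.25 (SE, n = 2 arrays per group), a 2.16-fold lower mean, with a 95% interval of -1.77 to -0.45. It had an unadjusted p of 0.00851 and ranked 543 by p among all genes, and it did not pass the adjustment (limma adjusted p = 0.261). Its size exceeded that of 97.3% of tested genes. Leaving out knockout replicate 2 gave -0.80 (limma adjusted p = 0.777), and leaving out knockout replicate 1 gave -1.42 (limma adjusted p = 0.416).

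The second Irf8 probe lies in the same transcript at chr8:123279889-123279948. It read -0.89 and -1.27 in the wild type against -1.84 and -2.42 in the knockout. Its groups did not overlap either, and the knockout arrays stood in the same order as for the first probe. The difference was -1.05 ± 0.26 (SE, n = 2 arrays per group), 2.07-fold lower (limma adjusted p over probes = 0.289). Both probes read the same RNA samples, so they repeat the measurement within an array and add no replicate of the genotype.

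Irf4, the closest relative of Irf8 and a factor of dendritic cells, macrophages and lymphocytes, was measured by 1 probe at chr13:30858459-30858518. It read 0.47 and 0.26 in the wild type and 0.13 and 0.03 in the knockout. The groups did not overlap, with a gap between them smaller than the gap between the wild-type arrays. The difference of -0.29 ± 0.14 (SE, n = 2 arrays per group) did not pass the test (limma adjusted p = 0.454), and without wild-type replicate 1 it was -0.18.

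**Figure D2:**
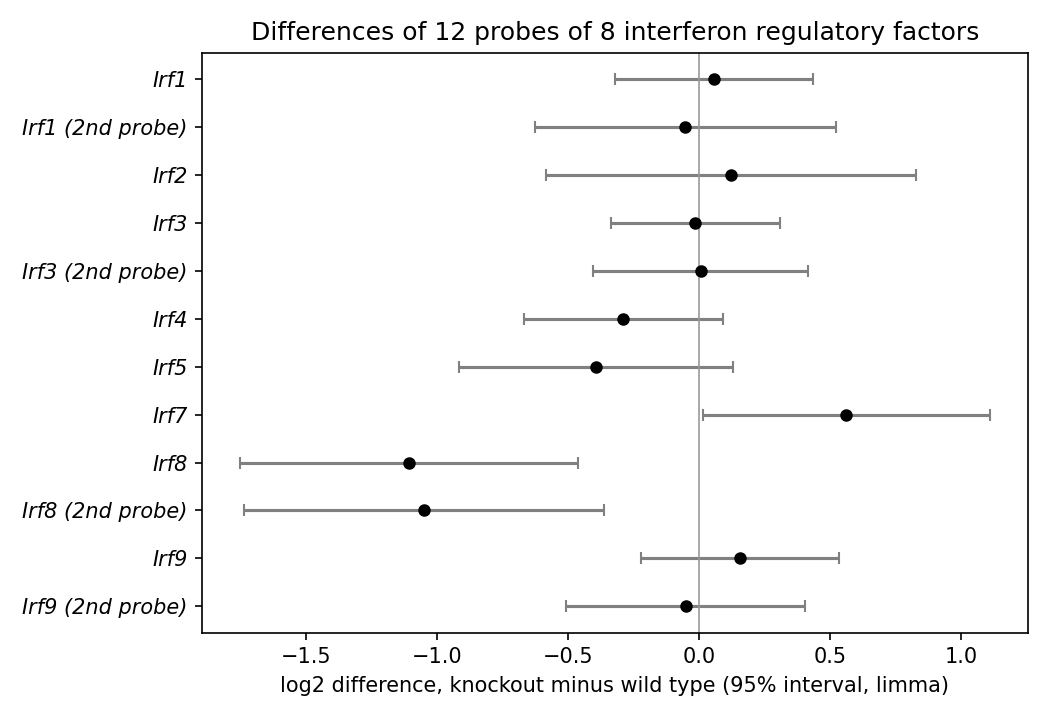
Knockout minus wild-type log2 difference of the 12 probes, as points, with the 95% interval of limma's fit over probes as bars (n = 2 arrays per group). The intervals of both Irf8 probes lie below 0 and that of Irf7 just above it, and the other 9 intervals span 0.

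Among the factors that act downstream of pattern recognition receptors, Irf7 had a higher mean in the knockout, Irf5 a lower one, and Irf3 a difference near 0, and none passed the test. Irf7, whose own gene is induced by interferon, was measured by 1 designed probe that crosses an intron, with its 60 bases spread over 351 bases of the genome at chr7:148450664-148451014 of mm9. The probe is shown because the only higher value of the family with an unadjusted p under 0.05 rests on it alone, and no letter is capitalised.
Irf7 probe: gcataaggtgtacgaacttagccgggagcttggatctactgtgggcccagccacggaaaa
It read -0.86 and -0.65 in the wild type and -0.43 and 0.04 in the knockout, whose values were the higher ones on both arrays. The difference was 0.56 ± 0.21 (SE, n = 2 arrays per group), 1.48-fold higher, with a 95% interval of 0.0058 to 1.12 and an unadjusted p of 0.0485. It did not pass the adjustment (limma adjusted p = 0.366). Without knockout replicate 2 it was 0.33, and without knockout replicate 1 it was 0.80, so that replicate 2 carries the larger share of the difference.

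Irf5, which drives inflammatory cytokine genes in myeloid cells, read 2.99 and 3.46 in the wild type and 2.82 and 2.84 in the knockout at chr6:29486901-29486960. Both knockout arrays lay below, and the wild-type arrays were farther from each other than the lower of them was from the knockout. The difference of -0.39 ± 0.20 (SE, n = 2 arrays per group) did not pass the test (limma adjusted p = 0.460). The Irf5 log2 difference was -0.16 without wild-type replicate 2, and -0.63 without wild-type replicate 1, with an unadjusted limma p of 0.0145 and an adjusted p of 0.187. Irf3, the constitutive factor of the early interferon response, read 3.70 and 3.72 against 3.71 and 3.69 at chr7:52257673-52257732. These 4 values overlapped, and the difference was -0.01 ± 0.12 (SE, n = 2 arrays per group), with a 95% interval of -0.33 to 0.30. The second Irf3 probe, placed on an Ensembl transcript at chr7:52253377-52253436, read -0.68 and -0.91 against -0.88 and -0.70 and differed by 0.01.

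Irf9, which gives ISGF3 its contact with DNA, read 0.29 and 0.41 in the wild type and 0.41 and 0.60 in the knockout at chr14:56228256-56228315. The groups met at the second wild-type and the first knockout array, and the difference was 0.16 ± 0.14 (SE, n = 2 arrays per group; limma adjusted p = 0.659). The second Irf9 probe, at chr14:56224980-56225190, read -3.35 and -3.39 against -3.61 and -3.23 and differed by -0.05. The Irf9 probes thus differed in sign, and neither had groups apart.

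Irf1, an activator induced by interferon gamma, and Irf2, which competes with Irf1 for the same elements, did not differ beyond their spread. Irf1 read 3.04 and 2.86 in the wild type and 2.93 and 3.07 in the knockout at chr11:53590715-53590774. The difference was 0.06 ± 0.14 (SE, n = 2 arrays per group), with a 95% interval of -0.32 to 0.43. Its second probe, at chr11:53587446-53587591, read -1.60 and -1.80 against -2.01 and -1.50 and differed by -0.05. The groups overlapped for both probes of Irf1. Irf2 read 0.37 and 1.09 in the wild type and 0.85 and 0.86 in the knockout at chr8:47932486-47932545. Both knockout values lay between the wild-type values, and Irf2 had the widest interval of the family, -0.60 to 0.84 around 0.12. An interval of this width leaves room for a difference larger than that of Irf5 in either direction.

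The genes that work with the family are described next from lists set up for this comparison, each beside the median of 0.03 over all tested genes. The lists were chosen with earlier results of these data known, so their counts are no independent test. No list member passed the adjusted threshold, so the values that follow describe these arrays, and counts of a list are set beside the shares of all tested genes. Of 9 type I, II and III interferon genes, 7 were on the array and 6 were well above background on no array, among them Ifnb1 and Ifng, the genes of interferon beta and gamma. The only tested one, Ifna2, read -6.33 and -6.88 in the wild type and -6.01 and -6.03 in the knockout. Ifna2 was not well above background on every array and was tested through 1 genotype alone, so its direction is no result.

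Genes of the interferon receptors and of the JAK-STAT pathway had 9 of 11 values higher and 2 lower, with a median of 0.24, and 7 higher and 4 lower with spike-in scaling. Their groups were apart and higher in the knockout for 7 genes and apart and lower for 1, against 28% and 20.1% of all genes. An unadjusted p under 0.05 was seen for 2, both higher, against 8.03%. With 1 array left out the median ran from 0.15 to 0.29. Ifnlr1, the receptor chain of interferon lambda, read 1.75 and 1.62 against 2.14 and 2.50, a difference of 0.63 ± 0.17 (SE, n = 2 arrays per group; limma adjusted p = 0.300). Ifngr1, the ligand-binding chain for interferon gamma, read 4.22 on both wild-type arrays against 4.58 and 4.51, a difference of 0.32. Both receptor chains had groups apart. Of the type I receptor, Ifnar2 differed by 0.34 with groups apart and Ifnar1 by 0.04 with groups overlapping. Jak1, a receptor-bound kinase, differed by 0.26 and Il10rb, a chain shared with the lambda receptor, by 0.24. Tyk2 differed by 0.13 and Stat2 by -0.04, with groups overlapping for both.

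Sensors, adaptors and kinases upstream of the family had 11 of 23 values higher and 12 lower, with a median of 0.00. The split was 13 and 10 with median scaling and 7 and 16 with spike-in scaling. The range was narrow, from -0.15 to 0.47, and 2 genes had an unadjusted p under 0.05, both higher, against 8.03% of all genes. The named members were Tlr9, a receptor for CpG DNA, at 0.37, Tank, an adaptor of the Irf3 kinases, at 0.33, Tbkbp1, a binding partner of Tbk1, at 0.47, and Dhx58, an RNA helicase of the sensor family, at 0.27. The kinases of Irf3 and Irf7 were near 0, with Tbk1 at -0.05 and Ikbke at 0.05 and groups overlapping for both. Brakes and regulators of the family had 5 of 12 values higher and 7 lower, with a median of -0.01, and were split 6 and 6 with median scaling. Atf3, a stress-induced repressor, read 1.94 and 3.88 against 1.20 and 1.35, and Socs3, a feedback inhibitor of cytokine signalling, read 3.09 and 3.11 against 2.70 and 2.57. Both lay below on the knockout arrays, and the wild-type arrays were far apart for Atf3 and close together for Socs3. Nlrc5, an activator of MHC class I genes, differed by -0.63 and Usp18, a negative regulator of interferon signalling, by -0.41.

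**Figure D3:**
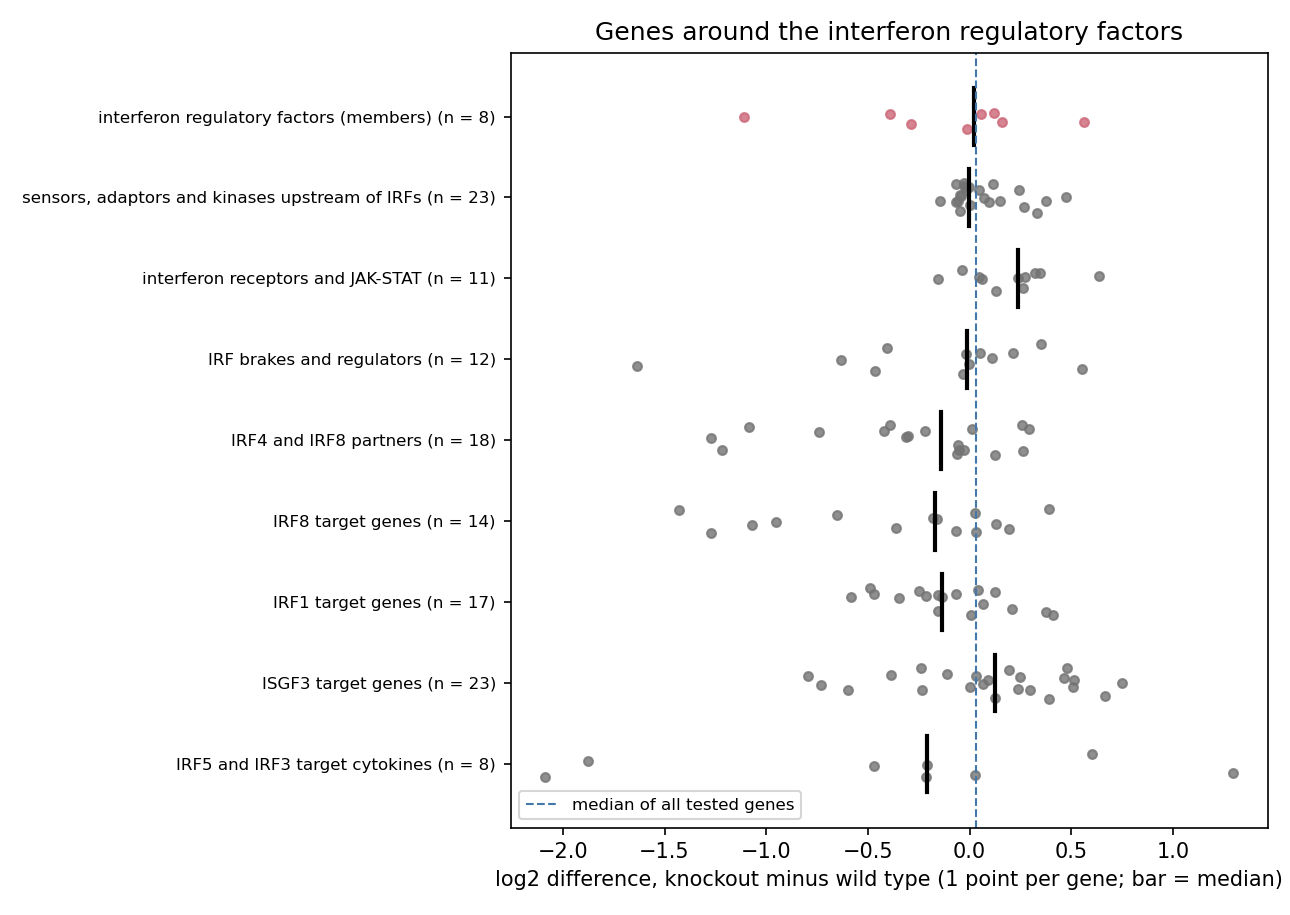
Knockout minus wild-type log2 difference of each tested gene of the family (red) and of 8 lists of genes that act with it (grey), with a black bar at each list's median and a dashed line at the median of all tested genes. Receptor and JAK-STAT genes lie mostly to the right of 0, and the cytokine genes spread widest, from -2.09 to 1.30.

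Transcription factors known as partners of Irf4 and Irf8, or set beside them in myeloid and dendritic cell fate, had 13 of 18 values lower and 5 higher, with a median of -0.14. With spike-in scaling 14 were lower. The groups were apart and lower for 6 genes and apart and higher for 3, against 20.1% and 28% of all genes. An unadjusted p under 0.05 was seen for 3, all lower, against 5.52%. With 1 array left out the median ran from -0.20, without knockout replicate 1, to -0.04, without wild-type replicate 2. Spi1, which encodes PU.1, had overlapping groups, with 1.52 and 1.44 in the wild type against 1.39 and 1.59 in the knockout and a difference of 0.01. Klf4, a monocyte factor, read 3.48 and 4.44 against 2.50 and 2.88, a difference of -1.27 ± 0.37 (SE, n = 2 arrays per group; limma adjusted p = 0.309). The Spi1 difference was within the spread, and Klf4 lay below on both knockout arrays. Batf2 read -1.27 and -0.89 against -1.66 and -1.98, a difference of -0.74. Spib, a relative of PU.1 in plasmacytoid dendritic cells and B cells, read -1.79 and -2.17 against -2.58 and -3.54, a difference of -1.08. Prdm1, a repressor best known from plasma cells, read -3.87 and -3.13 against -4.15 and -5.29. Batf2, Spib and Prdm1 lay below on both knockout arrays, and were named among genes whose groups did not overlap. Batf3, a factor of conventional dendritic cells, differed by -0.39, with wild-type values of 1.57 and 2.32 and knockout values of 1.57 and 1.54. The Batf3 difference rests on wild-type replicate 2, without which it was -0.02.

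Genes described as targets of Irf8 had 9 of 14 values lower and 5 higher, with a median of -0.17, and 11 lower and 3 higher with spike-in scaling. The list was not split by whether Irf8 raises or lowers a gene, so its counts are no reading of Irf8 activity. The 5 with an unadjusted p under 0.05 were all lower, against 5.52% of all genes. The groups were apart and lower for 7 genes and apart and higher for 2, against 20.1% and 28%. Il18, which encodes the cytokine interleukin 18, read -3.11 and -2.66 against -4.22 and -4.40, a difference of -1.43 ± 0.20 (SE, n = 2 arrays per group; limma adjusted p = 0.239). Dab2, an endocytic adaptor, read 1.86 and 2.10 against 1.07 and 0.75, a difference of -1.07. Ly86, a co-receptor of Cd180, read 2.78 and 3.17 against 2.30 and 1.76, a difference of -0.95. The knockout arrays lay below for these 3 genes as for Klf4, which is on this list too. These genes were named among those whose groups did not overlap. Ctss, a cysteine protease of antigen-presenting cells, differed by -0.65. The values were not all lower: Cybb, the catalytic subunit of the phagocyte NADPH oxidase and a known Irf8 target, read 4.95 and 5.29 against 5.34 and 5.68. Ctss and Cybb were named after their values were seen. Without knockout replicate 2, 10 of the 14 values were lower. The median was -0.32 without wild-type replicate 1 and -0.11 without wild-type replicate 2.

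Genes induced through ISGF3 had 16 of 23 values higher and 7 lower, with a median of 0.13, and 12 higher and 11 lower with spike-in scaling. Groups were apart and higher for 10 genes and apart and lower for 5, against 28% and 20.1% of all genes. At an unadjusted p under 0.05, 3 were higher and 2 lower, against 8.03% and 5.52%. The median was 0.24 without knockout replicate 1 and 0.08 without knockout replicate 2. Ifit1, an RNA-binding antiviral protein, read -4.54 and -4.49 against -3.87 and -3.83, a difference of 0.66 ± 0.12 (SE, n = 2 arrays per group; limma adjusted p = 0.250). Isg15, a ubiquitin-like modifier, read -0.50 and -0.54 against -0.11 and 0.09, a difference of 0.51. Rtp4, a receptor-transporting protein induced by interferon, read 0.20 and 0.24 against 0.72 and 1.22, a difference of 0.75. These 3 had both knockout arrays above, and were named among genes whose groups did not overlap. Mx1, an antiviral dynamin-like GTPase, read -3.08 and -3.10 against -3.87 and -3.90, a difference of -0.80, so the list held values in both directions.

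Genes induced through Irf1 had 7 of 17 values higher and 10 lower, with a median of -0.13, and 4 and 13 with spike-in scaling. Without knockout replicate 2 the split was 10 and 7. Il15, a lymphocyte growth factor, differed by 0.41, and Il18bp, the decoy binding protein of interleukin 18, by 0.37. Gbp3, a guanylate-binding protein, differed by -0.58, and Tap1, a subunit of the peptide transporter for MHC class I, by -0.49. Cytokine genes known as targets of Irf5 and Irf3 had 3 of 8 values higher and 5 lower, with a median of -0.21, and the values ran far apart. The median was 0.26 without knockout replicate 1, 0.01 without wild-type replicate 2, -0.47 without wild-type replicate 1 and -0.70 without knockout replicate 2, so this list has no stable direction. Il6 read -0.35 and -0.37 against -1.76 and -3.13, a difference of -2.09 ± 0.48 (SE, n = 2 arrays per group; limma adjusted p = 0.264). Il12a, the p35 subunit of interleukin 12, read -1.89 and -2.89 against -1.18 and -1.01, a difference of 1.30. Ccl5, a chemokine, read 0.33 and -0.48 against 0.54 and 0.52. It differed by 0.60, by 0.20 without wild-type replicate 2 and by 1.01 without wild-type replicate 1. Tnf differed by -0.21. Of the relatives outside the family, the co-repressor Irf2bp2 differed by 0.46 and Irf2bpl by -0.45. Both had groups apart, which was a condition for naming them.

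The sorted populations can hold other cell types, and in bulk samples fewer cells of a type and less RNA per cell cannot be told apart. Macrophages, dendritic cells and B cells are known to express Irf8 or Irf4, so their markers are given beside these genes. The marker lists too were chosen with earlier results of these data known, and their counts are no independent test. Of 19 macrophage and monocyte markers, 15 values were lower and 4 higher, with a median of -1.07. The median was -0.63 without knockout replicate 2 and -0.68 with normexp background correction, with 15 values lower in both cases. The groups were apart and lower for 12 and apart and higher for 4, against 20.1% and 28% of all genes. Mertk, a receptor for apoptotic cells, differed by -2.04, Fn1, fibronectin, by -1.91 and Mrc1, the mannose receptor, by -1.17, while Vcan differed by -0.95. The 4 higher markers were Adgre1 at 0.75, Ly6c2 at 0.40, Maf at 0.40 and Fcgr1 at 0.19. The signals summed over the list were 8.88 and 8.999 in the wild type and 9.23 and 9.31 in the knockout. Probes differ in brightness, so such a sum follows its brightest probe, here that of Ly6c2 at 8.63 and 8.72 against 9.05 and 9.11, and says little about the other markers. Csf1r, the receptor of macrophage colony-stimulating factor, read 3.38 and 3.76 against 3.24 and 3.55 with groups overlapping. Adgre1, Ly6c2, Maf, Fcgr1 and Csf1r were named after their values were seen.

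Of 17 tested dendritic cell markers of 18 listed, 12 values were lower and 5 higher, with a median of -0.34. Without knockout replicate 2 they were 9 and 8, with a median of -0.04, and without knockout replicate 1 the median was -0.58. Their summed signal was 8.47 and 8.76 against 8.71 and 8.25. Siglech, a receptor of plasmacytoid dendritic cells, differed by -1.75, Flt3, a receptor of dendritic progenitors, by -0.995, Cd86 by -0.77 and Cd24a by 0.43. Siglech was not well above background on every array and was tested through 1 genotype alone, so its direction is no result. With the filter on all arrays, 10 of 15 dendritic cell markers were lower and 5 higher, with a median of -0.22. Of 8 tested mast cell and basophil markers, 7 were lower, all with groups apart, against 20.1% of all genes, with a median of -1.30. The median was -0.51 without knockout replicate 2 and -2.18 without knockout replicate 1. Their summed signal was 6.00 and 6.17 against 5.52 and 4.61, and Mcpt4, Tpsab1 and Tpsb2 were well above background on no array. Gata2, a factor of mast cells and basophils, read 0.99 and 0.98 against -0.03 and -1.83. Cpa3, a mast cell protease, differed by -1.63, Ms4a2, a chain of the high-affinity IgE receptor, by -0.96, and Prss34, a basophil protease, by -1.57. Knockout replicate 2 was the lower array for Gata2 as for Irf8 and Mrc1. Knockout replicate 1 was the lower array for Klf4, Fn1 and Atf3, so the lower genes did not share 1 order.

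Of 7 tested B cell markers of 11, 4 were lower and 3 higher, with a median of -0.22 and summed signals of 1.31 and 0.84 against 1.62 and 1.37. The direction turned on single arrays, with a median of 0.18 without wild-type replicate 1 and 0.20 without knockout replicate 2. Blk, Ebf1, Igll1 and Pax5 were well above background on no array. Cd22 differed by -0.91, Cd79b by 0.56, Cd79a by 0.78 and Vpreb1 by -0.22. Cd79a was not well above background on every array and was tested through 1 genotype alone, so its direction is no result. With normexp background correction Cd79a differed by 0.083, Cd22 by -0.30 and Vpreb1 by -0.069. Of 6 tested T and NK cell markers, 5 were higher and 1 lower, with a median of 0.07, and 2 higher and 4 lower with normexp background correction. Their summed signal was 6.34 and 6.25 against 7.12 and 7.13, and Thy1, at 5.91 and 5.80 against 6.85 and 6.93, made up most of it. Cd3g, Gzma, Klrb1c and Ncr1 were well above background on no array, and Cd4 differed by 0.19. Cd4 too was not well above background on every array. Of 7 eosinophil markers, 3 were higher and 4 lower, with a median of -0.05 and summed signals of 3.93 and 6.14 against 4.797 and 5.29. The wild-type arrays decided this list: without replicate 2 all 7 were higher, with a median of 1.16, and without replicate 1, 5 were lower, with a median of -0.74. Siglecf was the 1 eosinophil marker of 7 with groups apart, against 48.1% of all genes, and differed by 0.78. Of 16 neutrophil granulocyte markers, 13 were higher and 3 lower, with a median of 0.21 and summed signals of 11.91 and 11.999 against 12.05 and 12.2. With quantile normalization 10 were higher and 6 lower, and with 1 array left out the median ran from 0.15 to 0.38. Cd177 differed by 0.77, Lcn2 by 0.81, Ngp by 0.50 and Csf3r, the receptor of granulocyte colony-stimulating factor, by 0.44. The 3 lower ones were Mpo at -0.43, Camp at -0.18 and Gfi1 at -0.16, named after their values were seen. Groups were apart and higher for 5 of the 16 and apart and lower for 1, against 28% and 20.1% of all genes. The part of any of these cell types in the Irf8, Irf4, Irf5 or Irf7 values was not tested.

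**Figure D4:**
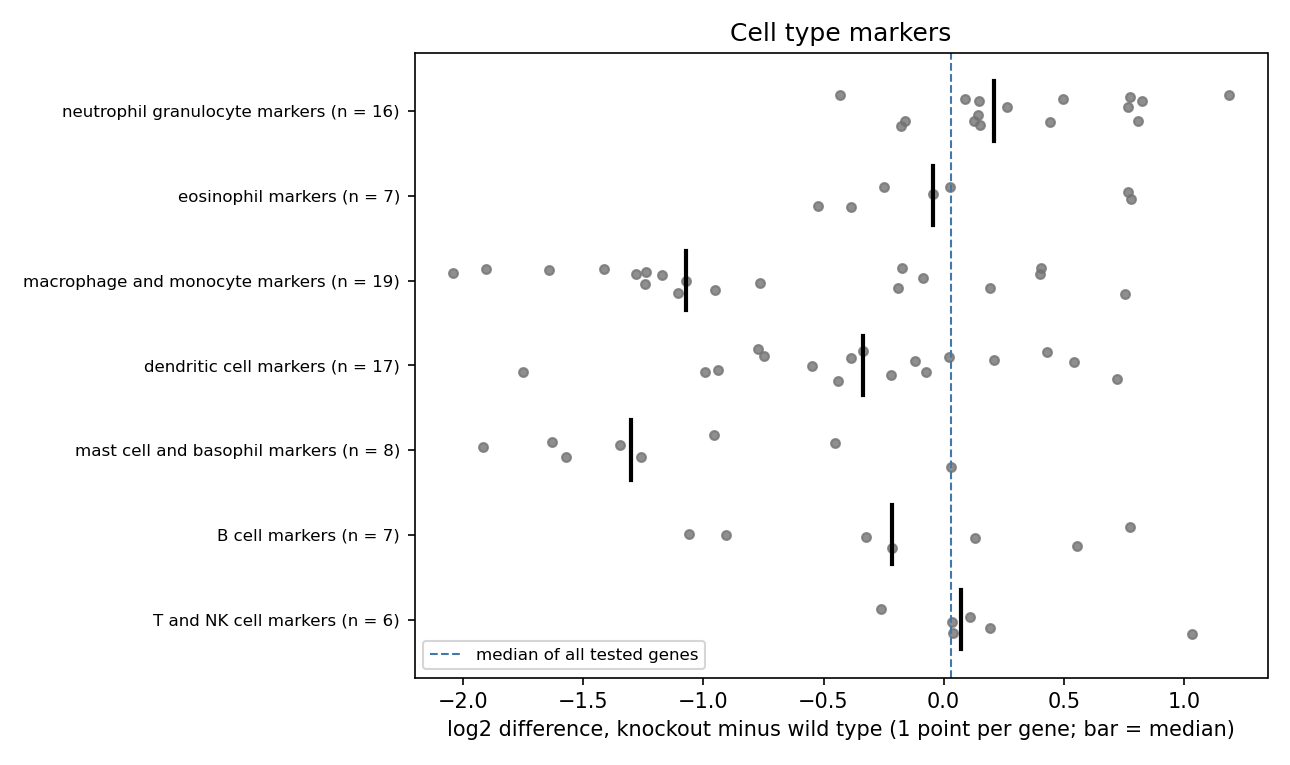
Knockout minus wild-type log2 difference of each tested marker gene of 7 cell types, with a black bar at the median of each list and a dashed line at the median of all tested genes. Macrophage and monocyte markers and mast cell and basophil markers have the lowest medians, -1.07 and -1.30, and neutrophil markers the highest, 0.21.

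The genes whose pattern over the 4 arrays was most like that of Irf8 were sought among the 214 tested genes of all lists, by the Euclidean distance of the values after subtracting each gene's mean. They were Mrc1 at a distance of 0.224, Spib at 0.287, Dab2 at 0.352, Ms4a2 at 0.373 and Mx2 at 0.383. For Irf7 they were Oas2 at 0.103, Csf3r at 0.140, Cybb at 0.219, Rtp4 at 0.221 and Cd177 at 0.226. With 4 arrays, any gene that is lower in the knockout by about as much and lowest on replicate 2 comes close to Irf8, so the distances describe these arrays alone.

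**Figure D5:**
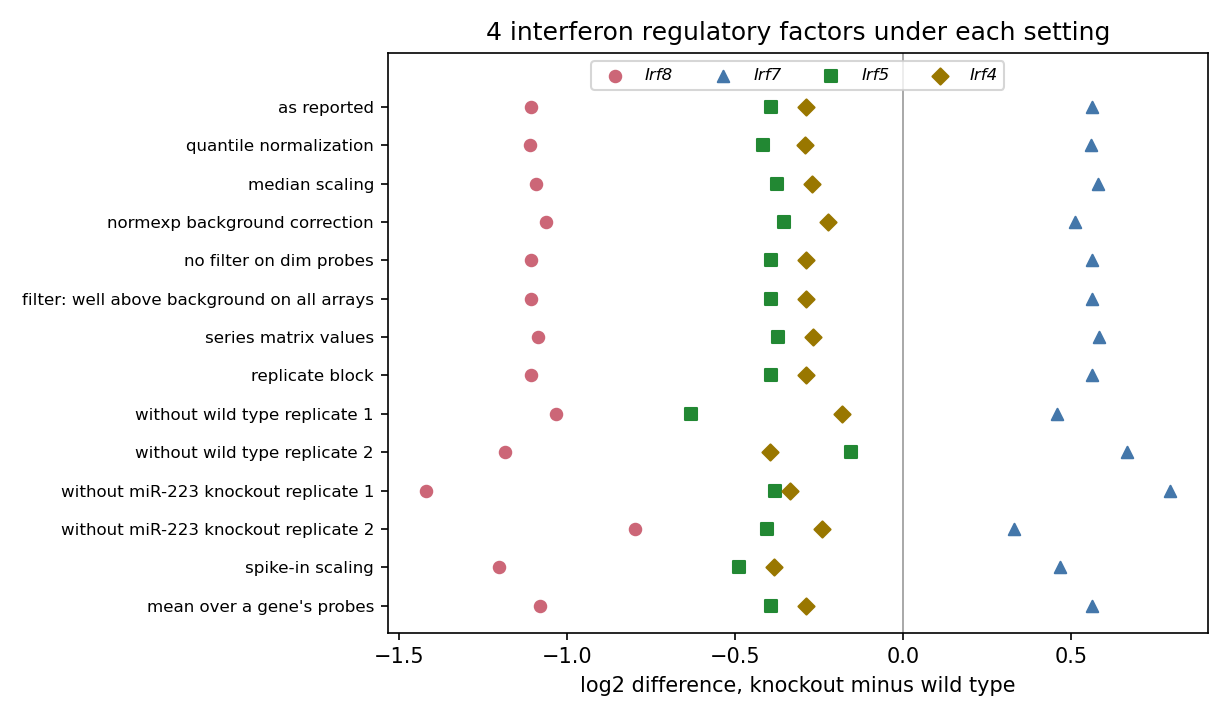
Knockout minus wild-type log2 difference of Irf8, Irf7, Irf5 and Irf4, the 4 genes whose groups did not overlap, as reported and under each of 13 other ways to process the arrays. Irf8 stays between -1.42 and -0.80 and Irf7 between 0.33 and 0.80, and leaving out single arrays moves the points most.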

How the data were processed

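Gene expression was measured in 4 samples, 2 wild type and 2 miR-223 knockout, on arrays of design 014868 that share 1 slide. The deposited intensity per spot was made with Agilent Feature Extraction 10.5.1.1, which subtracts background and does not normalize between arrays, per the file headers. The authors' deposited log2 values of the same arrays were the log2 intensity plus 1 constant per array for 99.8% of 41174 probes (within 0.01); how they were made is not given in the sources used here. They served as an alternative.

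Here each array's 75th percentile was subtracted from log2 intensity, and control spots were left out. Probes were named through RefSeq accessions (26888 by systematic name, 98 by another accession, 14188 by the file's own name). The probe of highest mean stood for a gene, which was tested if that probe was well above background throughout at least 1 genotype. The fit was limma 3.58.1 in R 4.3.3 (lmFit, eBayes), two-sided, adjusted by Benjamini-Hochberg over 16780 genes, and a second fit covered 25055 probes. Precision is limited by the small number of arrays, with a median SE of 0.157. Tested on simulated data with 16780 genes, the fit called 0% of true log2 changes of 1, 58% of those of 2 and 78% of those of 4, with 3 false calls.

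The 18 lists (252 entries), of which the family is 1, were chosen with earlier results of these data known. Named genes were every member, up to 4 genes per list with the smallest p among those whose groups did not overlap, and 12 pathway genes; the values of some listed genes are not reported here. Alternatives covered normalization, background correction, filters, the probe of a gene, spike-in scaling, the replicate block and each array left out.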

Additional observations from a re-analysis of the deposited data

How the results depend on the processing

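Under 13 other settings the differences of Irf4, Irf5, Irf7, Irf8 and Irf9 kept their sign and no member passed the adjusted threshold. Irf8 ranged from -1.42 to -0.80 with an unadjusted p under 0.05 under all 13, and adjusted p from 0.148 to 0.777. Irf7 had such a p under 6 of the 13. Of 78 differences tested in this way, 63 kept their sign under every setting. The cause of the changes below was not tested. Genes called, 0 as reported, numbered 5 with normexp background correction and 4 with spike-in scaling. Probes called, 3 as reported, numbered 6 with normexp and 5 with spike-in scaling, and 0 with median scaling, without a filter on dim probes, with the filter on all arrays, with the authors' deposited log2 values, and with any 1 array left out.

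Among members, Irf1 turned to -0.036 with spike-in scaling and ran from -0.031 to 0.15 with 1 array left out. Irf2 ran from -0.24 to 0.48 with 1 array left out. Irf3 turned to 0.0023 with median scaling and 0.0065 with the deposited log2 values. With 1 array left out, the second probes of Irf1 ran from -0.31 to 0.20, of Irf3 from -0.11 to 0.12 and of Irf9 from -0.24 to 0.13, and that of Irf3 was -0.088 with spike-in scaling. Cd4 turned to -0.049 with normexp and -1.21 with the deposited values. With the mean over a gene's probes, Il10rb was -0.12 and Dhx58 -0.11. Ifnar1 was -0.051 with normexp and -0.050 with spike-in scaling and ran from -0.13 to 0.22 with 1 array left out. In the same way Tyk2 ran from -0.0027 to 0.27, Stat2 from -0.15 to 0.074, Tbk1 from -0.12 to 0.021, Ikbke from -0.15 to 0.24 and Spi1 from -0.089 to 0.11. Spike-in scaling put Ikbke at -0.047 and Spi1 at -0.082.

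The replicate numbers are not stated to pair the arrays, and same-numbered arrays deviated together with a correlation of 0.174 across 16780 genes, with 2 pairs only. With the replicate block, 0 genes and 0 probes were called, and Irf8 stood at -1.11 (limma adjusted p = 0.245). With 1 array left out, the lone array of a group is taken to vary like the other group. Signal over background limits the dim genes: Ifna2 differed by 0.59 as reported and by 0.0078 with normexp. Over the 13 other settings Ifit1 ran from 0.20 to 0.69 and Mx1 from -0.89 to -0.41. Mertk ran from -2.25 to -0.82, Vcan from -1.05 to -0.46 and Il18 from -1.65 to -0.62. Cd22 ran from -1.23 to -0.30, Flt3 from -1.38 to -0.31 and Nlrc5 from -0.91 to -0.31. The sizes given for these genes thus depend on the setting.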
